A study of Mus musculus with 8 samples.

Results

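Between E14.5 and E18.5 the kidney forms most of its first working nephrons, and kidneys lacking Lim1 in the metanephric mesenchyme do not. The quantity described here compares the course of each gene over these 4 days in both genotypes. For each gene, the stage change was the log2 signal at E18.5 minus that at E14.5, taken separately in control and in mutant kidneys, and the interaction was the stage change in controls minus that in mutants. An interaction of 1 means that the ratio of E18.5 to E14.5 signal was 2-fold larger in controls. Of 13441 named genes that were kept for their signal, 302 had an interaction of 1 or more and 10 had an interaction of -1 or less. A further 52 genes rose by 1 or more in both genotypes with an interaction within 0.3 of 0, which is a 1.23-fold difference at most. These 364 genes are the members described below, and the 77 genes that fell by 1 or more in both genotypes to a like extent are given beside them. The 4 shares of all kept genes were 2.25% for interactions of 1 or more, 0.0744% for interactions of -1 or less, 0.387% for shared rises and 0.573% for shared falls. Since the thresholds were set on the measured values themselves, these counts are a description of the arrays and carry no test. Counted over the 27061 kept probe sets, named or not, the 4 classes held 524 (1.94%), 86 (0.318%), 101 (0.373%) and 170 (0.628%).

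The RNA came from whole kidneys of mouse embryos, pooled by genotype and stage. The control pools held Lim1flox/+; Rarb2Cretg/+ kidneys of 23 embryos at E14.5 and of 14 at E18.5. The mutant pools held Lim1flox/lacZ; Rarb2Cretg/+ kidneys of 17 embryos at E14.5 and of 9 at E18.5. Both genotypes therefore carried the Rarb2-Cre transgene, which is active in the metanephric mesenchyme, and 1 floxed allele, and the ureteric bud, outside the range of Cre, kept that allele beside lacZ in the mutants and beside wild type in the controls. The strain background was mixed and both sexes were pooled. Each pool was hybridised to 2 Affymetrix Mouse Genome 430 2.0 arrays from separate target preparations. With 1 biological replicate and 2 technical duplicates per condition there are 0 residual degrees of freedom between pools, so no p-value was computed. The error given beside an interaction is the lowest and the highest value among the 16 choices of 1 array per pool. It covers the spread between arrays of 1 RNA pool and leaves out the spread between embryos.

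Nephrons arise from the mesenchyme that caps the branching tips of the ureteric bud. Induced mesenchyme condenses, becomes an epithelial vesicle, and passes through comma- and S-shaped bodies into podocytes, proximal tubule, loop of Henle and distal tubule, while the bud itself becomes the collecting duct. The proximal tubule reclaims most of the filtered solutes through brush border transporters and depends on mitochondrial oxidation for its energy. Stroma, vessels and the urothelium of the renal pelvis mature over the same days. In whole kidneys, fewer cells of a type and less RNA per cell cannot be told apart.

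Lim1, whose current symbol is Lhx1, encodes the LIM homeodomain factor that was deleted. Its brighter probe set read 449 and 517 in E14.5 controls, 563 and 554 in E14.5 mutants, 369.9 and 352 in E18.5 controls and 296 and 333 in E18.5 mutants. Its other probe set read 388 and 365 in E14.5 controls, 323 and 289.8 in E14.5 mutants, 342 and 382 in E18.5 controls and 459 and 379 in E18.5 mutants. On average the first was lower in mutants than in controls at E18.5 and higher at E14.5, and the second was the other way round, with E18.5 arrays of both genotypes overlapping, so the signals of the targeted gene did not separate the genotypes in 1 direction. Where the probes lie relative to the deleted part is not given in the sources used here, so these signals do not check the genotype labels. Median signals of the 8 arrays lay between 225 and 243. The ratios of 3′ to 5′ signal ranged from 1.23 to 1.92 for the beta-actin controls and from 1.01 to 1.33 for the Gapdh controls. The log2 gap between duplicates had an SD of 0.29 over kept probe sets for the E18.5 mutant pool and of 0.19 to 0.22 for the other pools. Genes with duplicates 1.5-fold or more apart numbered 190 in E14.5 controls, 233 in E14.5 mutants, 276 in E18.5 controls and 176 in E18.5 mutants. Array 2 was the higher in 183, 6, 272 and 93 of them, in that order, so these gaps were largely one-sided outside the E18.5 mutant pool. On the E18.5 mutant arrays the beta-actin 3′ signal was 13052 on array 1 and 5810 on array 2. The part of this gap in any result was not tested, and members whose value rests on it are named where they appear.

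Over all kept genes the median interaction was 0.02, and the median stage change was 0.02 in controls and 0.03 in mutants. The balance at the extremes was uneven: 588 genes (4.37%) rose by 1 or more in controls and 151 (1.12%) did so in mutants, whereas 212 (1.58%) fell by 1 or more in controls and 142 (1.06%) in mutants. Of the 588 rises in controls, 118 were also rises in mutants, which is 20.1% of the rises in controls and 78.1% of those in mutants. Of the falls, 117 were common to both genotypes, 55.2% of those in controls and 82.4% of those in mutants. An interaction of 1 or more was found in 244 of the 588 genes that rose in controls (41.5%). No gene rose by 1 or more in one genotype and fell by as much in the other.

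**Figure D1:**
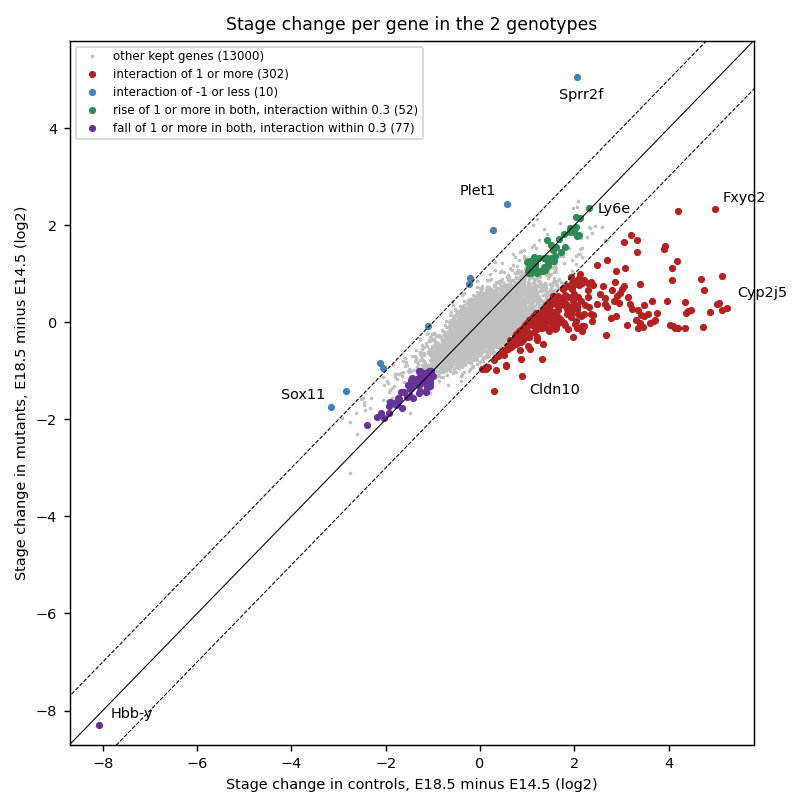
Each point is 1 of 13441 kept genes, placed by its log2 stage change (E18.5 minus E14.5) in controls on the x axis and in mutants on the y axis, with colours for the 4 classes. The solid line marks equal change and the dashed lines an interaction of 1 and -1, and the 302 red points spread to the right, along small changes in mutants, while 10 blue points lie above the upper dashed line.

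The highest interactions belonged to genes of differentiated tubule segments. Cyp2j5, a cytochrome P450 epoxygenase of arachidonic acid found in the proximal tubule, read 39.5 and 48.6 in E14.5 controls, 40.1 and 35.7 in E14.5 mutants, 1653 and 1714 in E18.5 controls and 51.6 and 41.8 in E18.5 mutants. Both E18.5 control arrays stood far above the other 6, which overlapped one another, and the interaction was 4.94 (4.54 to 5.34). Slc34a1 carries phosphate with sodium across the proximal brush border, and it read 142 and 144 in E14.5 controls, 61.4 and 71.3 in E14.5 mutants, 5061 and 5027 in E18.5 controls and 85.2 and 73.8 in E18.5 mutants. Here the E14.5 controls were already above the E14.5 mutants, and the interaction was 4.87 (4.65 to 5.10). Umod encodes uromodulin, the main protein secreted by the thick ascending limb. It read 66.9 and 69.6 in E14.5 controls, 51.9 and 49.4 in E14.5 mutants, 1849 and 1820.3 in E18.5 controls and 51.7 and 42.8 in E18.5 mutants, with an interaction of 4.83 (4.63 to 5.04). Its dimmer probe set had an interaction of 5.38.

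The same shape, high on the E18.5 control arrays and low on the other 6, held for the rest of the 12 highest. Kl, the klotho coreceptor of FGF23, read 1866 and 1728 in E18.5 controls against 46.8 and 54.5 in E18.5 mutants (interaction 4.67). S100g, the small calcium-binding protein calbindin-D9k, read 3734 and 3972 against 81.9 and 88.8 (4.67). Cyp27b1, which makes the active form of vitamin D, read 1342 and 1347 against 84.8 and 65.3 (4.31). All 3 act in the handling of calcium and phosphate, as does Slc34a1. Among metabolic genes, Fbp1, a gluconeogenic phosphatase, read 4292 and 4408 in E18.5 controls and 137 and 135 in E18.5 mutants (4.65). Gatm, the first enzyme of creatine synthesis, read 2322 and 2193 and 106 and 123 (4.26). Slc5a8, a sodium-coupled monocarboxylate transporter, had an interaction of 4.18, and Slc22a19, an organic anion transporter, one of 4.18. The remaining 2 were Serpina6, a steroid-binding serpin that read 1338 and 1427 against 68.9 and 69.8 (4.45), and the secreted phosphoprotein gene Spp2, with 3042 and 2991 against 139.7 and 136 (4.22). In these 12 genes the stage change in mutants lay between -0.12 for Gatm and 0.39 for Kl.

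**Figure D2:**
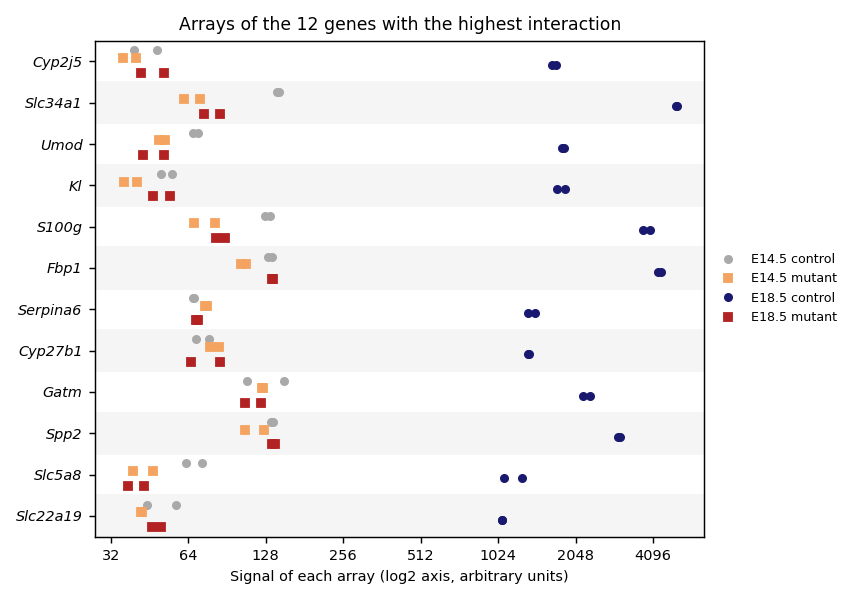
Signals of the 8 arrays (x axis, log2 scale, arbitrary units) for the 12 genes with the highest interaction (rows), with 2 points per pool. In each row the dark points of the E18.5 controls lie alone on the right, between 1062 and 1063 for Slc22a19 at the low end and 5061 and 5027 for Slc34a1 at the high end.

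Promoter letters were compared as a further feature that the choice of members had not used. RefSeq promoters, 250 bases before to 50 bases after a start, were matched by symbol for 243 of the 302 genes with an interaction of 1 or more, and 195 of these had a single promoter in the table. TATAAA, the letters of the TATA box, at which the general transcription machinery assembles, was searched on either strand. It stood in 11 of 45 promoters (24.4%) of genes with an interaction of 2 or more, in 13.3% of the 150 promoters of genes between 1 and 2, in 8.21% of promoters of kept genes and in 14.8% of all 22862 single promoters. Among the 40 genes with the highest interaction, only those with a single promoter were searched for windows, and genes of 1 chromosome were left out. The number searched is not given here, and 6 genes held the letters before the start. The windows of the 4 in which they lay nearest the start are given here (GRCm38.p6, written along the gene's strand), with TATAAA or its reverse complement in capitals, because they belong to genes at the high end of the interaction.
Slc3a1, chr17:85028293-85028346, plus strand: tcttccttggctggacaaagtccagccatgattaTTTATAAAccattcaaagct
Cyp2d26, chr15:82794246-82794312, minus strand: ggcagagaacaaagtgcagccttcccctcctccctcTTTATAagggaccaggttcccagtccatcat
Kap, chr6:133853668-133853734, minus strand: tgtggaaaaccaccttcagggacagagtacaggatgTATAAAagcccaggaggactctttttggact
Cldn2, chrX:139800737-139800807, plus strand: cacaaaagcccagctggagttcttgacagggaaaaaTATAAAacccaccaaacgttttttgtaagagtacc

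The letters began 31 bases before the start in Cyp2d26 and Kap, 35 bases in Cldn2 and 18 bases in Slc3a1. In Cyp2j5, the gene with the highest interaction, they began 128 bases before it. A match is a run of letters and was not examined as a binding site. AAAGTCC, part of the site bound by HNF4A, stood in 11.1% of the 45 promoters, against 4.25% of kept genes and 4.23% of all promoters. These HNF4A letters were found in 5 of the 45 promoters, and in 2.00% of the 150 promoters of genes between 1 and 2. Over all 195 single promoters of the class the share was 4.10%, no higher than in kept genes. In the 33 single promoters of shared rises it was 9.09%. TAATTA, the core bound by LIM homeodomain factors, stood in 8.89% of the 45 promoters, against 2.60% of kept genes and 5.45% of all promoters. CCAAT stood in 48.9%, against 38.6% and 38.2%, and TTTGAA, the cell cycle homology element, in 17.8%, against 12.3% and 18.5%. TATAAA and its reverse complement can overlap, as in Slc3a1. The ratio of observed to expected CpG was also low in these promoters, with a median of 0.284, against 0.706 in genes with an interaction between 1 and 2, 0.748 in kept genes and 0.374 in all promoters.

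The 302 genes were not spread evenly over the range. An interaction between 1 and 2 was found in 227 of them, between 2 and 3 in 40, between 3 and 4 in 19, and of 4 or more in 16. Their median interaction was 1.36, made of a median stage change of 1.56 in controls and 0.11 in mutants. In 301 of them the sign was the same in all 16 array choices, and in 152 the value stayed at 1 or more in all 16. With E18.5 mutant array 1 alone 293 of the 302 stayed at 1 or more, and with array 2 alone 229 did. Of the 302, 91 reached the minimum signal only through the E18.5 control pool, so a large difference was built into their being kept. For 113 genes other probe sets were kept as well: they were all past the threshold in 39 genes, all on the same side of 0 in 83, and at least 1 lay on the opposite side in 30. At the edge, Ankib1 (1.00) and Tmed5 (1.00) lay just inside the threshold and Cldn16 and Igfbp3, both near 1.00, just outside.

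Most of these genes rose in controls and stayed level in mutants: 230 rose by 1 or more in controls and moved by less than 1 in mutants, with medians of 1.76 and 0.17. In 14 genes both genotypes rose, the controls more. Genes named from these divisions, and others outside the naming rule, were picked after their values had been seen. Fxyd2, the gamma subunit of the sodium pump in the kidney, read 207 and 186 in E14.5 controls, 41.6 and 27.2 in E14.5 mutants, 6129 and 6408 in E18.5 controls and 148 and 205 in E18.5 mutants. It rose in both genotypes from levels that already differed at E14.5, with stage changes of 4.99 and 2.34 and an interaction of 2.65 (2.01 to 3.29). Aqp1, the water channel of proximal tubule and thin limb, read 146 and 129 in E14.5 controls, 127 and 158 in E14.5 mutants, 2001 and 2091 in E18.5 controls and 375 and 439.8 in E18.5 mutants. Its stage changes were 3.89 in controls and 1.51 in mutants. The others of the 14 included Aqp2, the vasopressin-regulated channel of the collecting duct, the carbonic anhydrases Car4 and Car12, and the nuclear RNA Neat1. In Neat1 the stage changes were 3.32 and 1.70 by its brightest probe set (interaction 1.62), and its other kept probe set had an interaction of 0.11.

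In 56 genes neither genotype moved by 1 or more, and the interaction came from a smaller rise in controls together with a fall in mutants (medians of 0.72 and -0.40). Genes of mitochondrial and sterol-synthesis proteins were among them. Cycs, which encodes cytochrome c, read 3892 and 4455 in E14.5 controls, 3932 and 3824 in E14.5 mutants, 4697 and 4386 in E18.5 controls and 1940.2 and 2142 in E18.5 mutants, so that the controls were nearly level between stages and the E18.5 mutants stood below the other 3 pools. Uqcrc2, a core subunit of respiratory complex III, read 2146 and 2243 in E14.5 controls, 1995 and 2126 in E14.5 mutants, 2312 and 2249.9 in E18.5 controls and 892 and 1250.0 in E18.5 mutants and showed the same order. The 3 other kept probe sets of Cycs had interactions from -0.17 to 1.11, and the other of Uqcrc2 was at 1.09. Hmgcs1, an early enzyme of cholesterol synthesis, read 2014 and 2388 in E14.5 controls, 1694 and 1592 in E14.5 mutants, 3007 and 3427 in E18.5 controls and 751 and 1036 in E18.5 mutants, with an interaction of 1.44 (0.95 to 1.94). In 2 genes the mutants fell by 1 or more without a rise of 1 in controls, namely the claudin gene Cldn10 and the retinoic acid-binding protein gene Crabp1. Crabp1 read 178 and 168 in E14.5 controls, 265 and 305 in E14.5 mutants, 204 and 217 in E18.5 controls and 105 and 106 in E18.5 mutants, with a stage change of 0.29 in controls and -1.42 in mutants.

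At E14.5 the genotypes differed little for most of these genes. The E14.5 control signal was higher than that of mutants by 1 or more on the log2 scale in 15 of the 302 genes, and lower by as much in 1. Over all kept genes these shares were 0.149% and 0.00744%. Proximal tubule genes were among the 15. Hao2, a peroxisomal hydroxyacid oxidase, read 137 and 175 in E14.5 controls and 10.7 and 33.6 in E14.5 mutants. Sult1d1, a sulfotransferase, read 247 and 329 and 42 and 52.4 at that stage, and Cltrn, the collectrin that carries amino acid transporters to the brush border, 165 and 251 and 47.2 and 50.5. Pdzk1, a scaffold of the brush border, read 363 and 397 and 144 and 159.6. Between E14.5 and E18.5 these 4 genes rose in controls by 3.93, 3.19, 4.07 and 3.14, and in mutants by 1.57, 1.79, 0.88 and 0.51. The interaction of such a gene adds to a genotype difference that was present at the start.

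By nephron segment, the proximal tubule list stood highest. Of its 46 kept genes 35 had an interaction of 1 or more (76.1%, against 2.25% of all kept genes), and 44 lay above 0. The median interaction was 2.37, and the median over single arrays ran from 2.20 to 2.61. Some of the 46 genes, such as Cyp2j5 and Slc34a1, reached the minimum signal only through the E18.5 control pool. For them a large difference was built into being kept, and their number among the 46 is not given here. Of the 53 listed genes on the array, those not kept included Slc5a1 and Slc6a19. Summed over the 46 genes, the signal was 13402 and 13853 in E14.5 controls, 11028 and 11540 in E14.5 mutants, and then 79007 and 79262 in E18.5 controls against 12646 and 11897 in E18.5 mutants. Receptors for filtered proteins were among them: Lrp2 (megalin) read 2024 and 2059 in E18.5 controls and 98.8 and 104 in E18.5 mutants, and its partner Cubn (cubilin) 1521 and 1548 and 66.3 and 67.5. Of the peptidases, Anpep had an interaction of 3.94 and Enpep one of 1.56. Enpep was brighter at the start, with 1034 and 1270.1 in E14.5 controls and 766 and 740.1 in E14.5 mutants. The lowest value of the list was that of Slc7a7, a basolateral amino acid exchanger, at -0.11 (-0.41 to 0.19).

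The loop of Henle list had 4 of 11 kept genes at 1 or more (36.4%, against 2.25% of all kept genes) and a median of 0.65. Besides Umod, Slc12a1, the furosemide-sensitive cotransporter, read 263 and 312 in E14.5 controls, 115 and 121 in E14.5 mutants, 3687 and 3541 in E18.5 controls and 169 and 153 in E18.5 mutants. Kcnj1, the apical potassium channel of the same cells, had an interaction of 2.01 (1.62 to 2.40). Tmem207 was lowest, at -0.30. The list of distal and connecting tubule had 6 of 16 genes at 1 or more (37.5%) and a median of 0.39. Slc12a3, the thiazide-sensitive cotransporter, read 705 and 709.6 in E18.5 controls and 144 and 128 in E18.5 mutants (2.26). Calb1, a calcium-binding protein also made in the ureteric bud, read 1935 and 1985 in E14.5 controls, 1955 and 1971 in E14.5 mutants, 2307 and 2264 in E18.5 controls and 2276 and 2552 in E18.5 mutants. With an interaction of -0.07 (-0.20 to 0.05), Calb1 lay within 0.3 of 0, unlike S100g.

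Genes of the collecting duct, which derives from the ureteric bud, were mixed. In the principal cell list 2 of 14 genes had an interaction of 1 or more (14.3%, against 2.25% of all kept genes), and the median was 0.25. Aqp2 read 168 and 147 in E14.5 controls, 143 and 125 in E14.5 mutants, 2659 and 2632 in E18.5 controls and 281 and 296 in E18.5 mutants, so it rose in both genotypes and far more in controls (2.95, 2.71 to 3.19). Tfcp2l1, a transcription factor of the duct, read 491 and 484 in E14.5 controls, 484 and 483 in E14.5 mutants, 2139 and 2069 in E18.5 controls and 877 and 1052 in E18.5 mutants and had an interaction of 1.12 (0.95 to 1.29). Fxyd4, another regulator of the sodium pump, went the other way: it read 904 and 952 in E18.5 controls and 1145 and 1432 in E18.5 mutants, with an interaction of -0.56 (-0.94 to -0.18). In the intercalated cell list 1 of 10 genes passed, the ammonia channel Rhbg (1.06), and the median was 0.32.

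The podocyte list, although podocytes are nephron cells, had a median of 0.20 and 1 of 20 kept genes at 1 or more. That is 5%, against 2.25% of all kept genes, and rests on 1 gene. That gene was Synpo, the actin-associated synaptopodin of the foot process, which read 161 and 176 in E14.5 controls, 134 and 146 in E14.5 mutants, 590.5 and 556 in E18.5 controls and 208 and 254 in E18.5 mutants. Its other kept probe set had an interaction of -0.12. Tcf21, which is also expressed in stroma, read 3452 and 3382 in E18.5 controls and 4121 and 4490.1 in E18.5 mutants, and Wt1, which is also expressed in the cap mesenchyme, had an interaction of -0.35 (-0.61 to -0.10). In the list of renal vesicle and early nephron genes 2 of 31 had an interaction of 1 or more, Papss2 (1.23), which makes the sulfate donor of sulfation reactions, and Irx2 (1.01), an Iroquois homeobox gene. The median was -0.09, and Notch2 was lowest (-0.80, -1.20 to -0.41). The 2 other kept probe sets of Papss2 had interactions of -0.06 and 0.45.

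Genes that the study itself discusses around the vesicle stage had interactions on both sides of 0. The study names them for a higher signal in controls at E14.5, which is another measure. By that measure, E14.5 control minus mutant, their brightest probe sets ran from 0.05 for Crb3 to 1.39 for Hes5. Hes5, a target of Notch, read 377 and 617 in E14.5 controls, 218 and 155 in E14.5 mutants, 169.6 and 181 in E18.5 controls and 114 and 113 in E18.5 mutants. It was highest in E14.5 controls, with stage changes of -1.45 in controls and -0.69 in mutants, so its interaction was -0.77 (-1.42 to -0.11). Jag1, a Notch ligand, had an interaction of -0.24 (-0.97 to 0.49), Pou3f3 (Brn1) one of 0.33 (0.10 to 0.56), and Irx3 one of 0.44 (0.16 to 0.73). Epha4, an ephrin receptor, was at -0.62 and Fzd4, a Wnt receptor, at 0.14. Crb3, a polarity protein, was at -0.04. Msi2, an RNA-binding protein, was at -0.06 by its brightest probe set, but all 7 of its kept probe sets lay below 0, down to -1.57 (-2.10 to -1.04) for the dimmest, which read 345 and 463 in E14.5 controls, 127 and 155 in E14.5 mutants, 99.7 and 112 in E18.5 controls and 118 and 103 in E18.5 mutants.

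**Figure D3:**
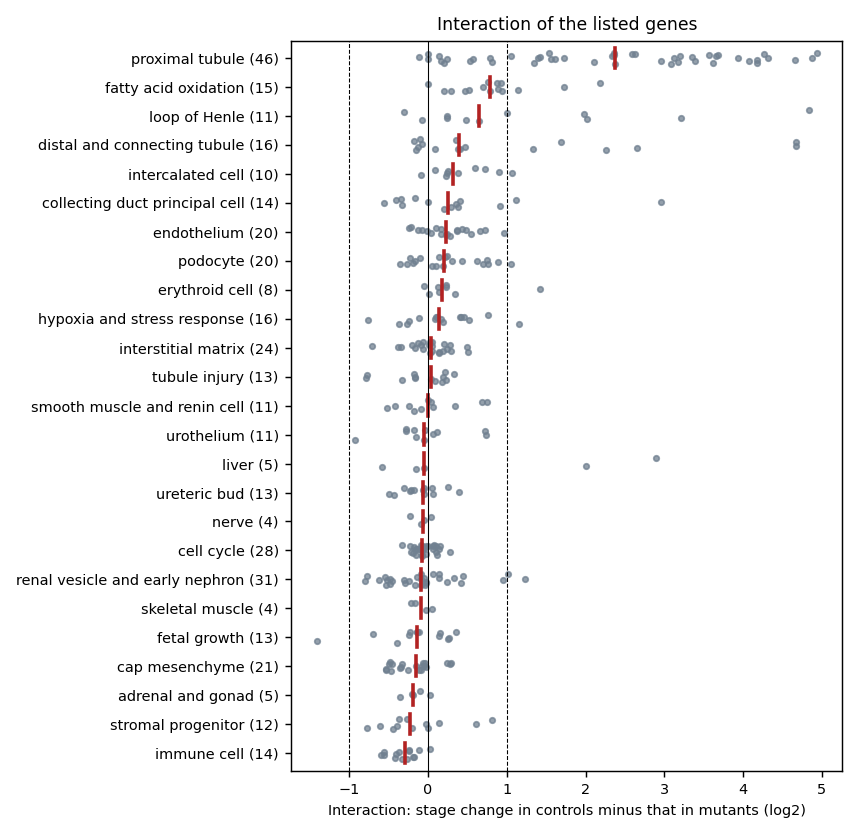
Interaction (x axis, log2) of each kept gene of 25 lists, with the number of kept genes in brackets, the list median as a red bar and dashed lines at -1 and 1. The proximal tubule list stands apart with a median of 2.37, and the medians of all other lists but fatty acid oxidation (0.78) and loop of Henle (0.65) lie between -0.30 and 0.39.

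Most genes of the respiratory complexes, ATP synthase and citric acid cycle had interactions above 0, with medians smaller than that of the proximal tubule list. These families were gathered by gene symbol after the values had been seen. Of 32 kept subunit genes of respiratory complex I, which passes electrons from NADH to ubiquinone, 12 had an interaction of 1 or more. That is 37.5%, against 2.25% of all kept genes, and 31 of the 32 lay above 0, with a median of 0.85. Complex III had 6 of 9 genes at 1 or more and a median of 1.09. All 17 kept genes of the ATP synthase family and all 14 of the citric acid cycle lay above 0, with medians of 0.57 and 0.91. Complex IV was lower, with 1 of 13 genes at 1 or more, a median of 0.48 and 3 genes below 0, and complex II had 1 of 4 and a median of 0.95. The mitochondrial carriers were spread around 0, with 2 of 39 genes at 1 or more (5.13%), 17 below 0 and a median of 0.10. In complex I, the citric acid cycle and ATP synthase the stage change was upward in controls and about level or downward in mutants, with medians of 0.53 and -0.34 for complex I, 0.52 and -0.40 for the citric acid cycle, and 0.68 and -0.21 for ATP synthase.

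Single genes show the shape. Ndufs7, an iron-sulfur subunit of complex I, read 822 and 754 in E14.5 controls, 1172 and 1206 in E14.5 mutants, 1918 and 2011 in E18.5 controls and 992 and 1365 in E18.5 mutants. It was higher in mutants than in controls at E14.5 and lower at E18.5, with an interaction of 1.35 (1.00 to 1.70). Atp5g1, which encodes the ring subunit of ATP synthase, read 1369 and 1269.9 in E14.5 controls, 1705 and 1388 in E14.5 mutants, 2574 and 2748 in E18.5 controls and 963 and 1255 in E18.5 mutants and had an interaction of 1.5 (1.06 to 1.94). Idh3a, a subunit of isocitrate dehydrogenase, had stage changes of 0.65 and -0.51, but its 2 other kept probe sets had interactions of -0.14 and -0.06. Among genes of fatty acid oxidation, 3 of 15 had an interaction of 1 or more (20%, against 2.25% of all kept genes) and the median was 0.78. Acadm, a medium-chain acyl-CoA dehydrogenase, read 574 and 659.6 in E14.5 controls, 715 and 554 in E14.5 mutants, 2571 and 2577 in E18.5 controls and 736 and 864 in E18.5 mutants. The vacuolar ATPase, which acidifies endosomes and urine, had 3 of 18 genes at 1 or more and a median of 0.83, and cholesterol synthesis had 3 of 15, Cyp51 (1.61), Hmgcs1 (1.44) and Sqle (1.14), with a median of 0.43. The paired metallothionein genes Mt1 and Mt2 had interactions of 1.67 and 1.09.

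**Figure D4:**
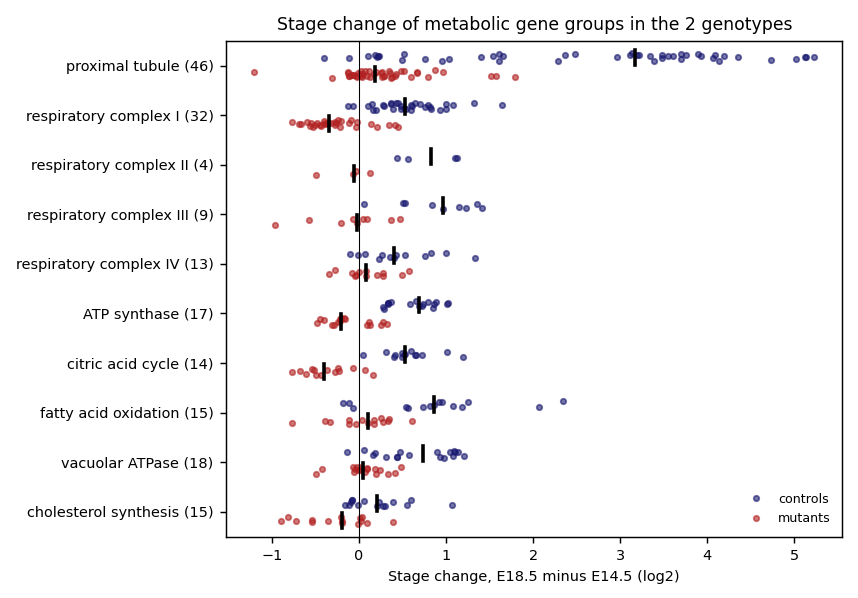
Stage change (x axis, log2) of each kept gene of 10 groups in controls (dark) and mutants (red), with black bars at the medians and the number of kept genes in brackets. In the proximal tubule list the control points reach 5.23 (Cyp2j5) while the mutant median is 0.18, and in complex I and the citric acid cycle the mutant medians lie below 0, at -0.34 and -0.40.

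In the solute carrier, cytochrome P450 and glutathione S-transferase families most genes lay below 1, and none was at -1 or less. Of 266 kept solute carrier genes 29 had an interaction of 1 or more (10.9%, against 2.25% of all kept genes), with a family median of 0.09. Of 43 cytochrome P450 genes 4 did so (9.30%), while 26 of the 43 lay below 0. The glutathione S-transferases had 4 of 15, led by Gsta2 (4.17). In the gene order, 17 of the 302 formed 9 pairs next to each other, among them Slc22a6 with Slc22a8, Slc17a1 with Slc17a3, and Mt1 with Mt2. The like share over all kept genes is not given here, so the count is a description only. Xist, the RNA of the inactive X chromosome, was also among the 302, with 1579.9 and 2029 in E14.5 controls, 3103 and 2809 in E14.5 mutants, 5369 and 4891 in E18.5 controls and 2805 and 5279 in E18.5 mutants. Its interaction of 1.13 ranged from 0.36 to 1.91, its duplicates in E18.5 mutants stood far apart, and a second probe set had a stage change of -1.16 in controls and -1.16 in mutants. The sexes were mixed within each pool, and the share of each sex is not given in the sources used here.

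Markers of other organs were examined beside these counts. In the liver list 5 genes were kept. The secreted plasma proteins Ttr (transthyretin) and Afp (alpha-fetoprotein) were past the threshold, with 1633 and 1604 in E18.5 controls against 208 and 248 in E18.5 mutants for Ttr and 2028 and 1858 against 366 and 430.5 for Afp. Alb, the defining marker of hepatocytes, was lower in E18.5 controls (344 and 369.9) than in E18.5 mutants (648 and 803), so the list did not move as 1 group. The lists of adrenal and gonad, skeletal muscle and nerve had no gene at 1 or more or at -1 or less, and medians between -0.19 and -0.07. Of the erythroid genes, 1 of 8 was past 1, the transferrin receptor gene Tfrc, which dividing cells of many kinds also express. It read 1389 and 1519 in E14.5 controls, 1611 and 1612 in E14.5 mutants, 2187 and 2044 in E18.5 controls and 789.6 and 971 in E18.5 mutants, with stage changes of 0.54 in controls and -0.88 in mutants. Its 2 other kept probe sets had interactions of -0.06 and 0.02.

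The 10 genes with an interaction of -1 or less fell into different patterns. Sprr2f, a small proline-rich protein gene of squamous and uterine epithelia, rose in both genotypes and more so in mutants: it read 113 and 113 in E14.5 controls, 84.5 and 103 in E14.5 mutants, 464 and 477 in E18.5 controls and 3078 and 3189 in E18.5 mutants. The stage change was 2.05 in controls and 5.05 in mutants, and the interaction -3.0 (-3.19 to -2.81). Sprr2 genes are near-identical copies, so the signal may be shared between them. Plet1, a surface protein of placental and other epithelia, read 271 and 301 in E14.5 controls, 355 and 320.0 in E14.5 mutants, 409 and 439 in E18.5 controls and 1651 and 2034 in E18.5 mutants, with an interaction of -1.87 (-2.23 to -1.52). Of its other probe sets, the dimmer also stood at -1.92 and the brighter at -0.28. Gsdmc2, a gasdermin gene from a cluster of close copies, read 391 and 280.2 in E14.5 controls, 340.0 and 329 in E14.5 mutants, 368 and 440.4 in E18.5 controls and 1165 and 1331 in E18.5 mutants and had an interaction of -1.61 (-2.10 to -1.12). These were the 3 genes that rose by 1 or more in mutants, and in them both E18.5 mutant arrays stood above the other 6.

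Rrad, a small GTPase gene, and Oit1 had stage changes of 0.92 and 0.80 in mutants, and of -0.22 and -0.23 in controls. Rrad read 149 and 156 in E18.5 controls and 316 and 377 in E18.5 mutants, with an interaction of -1.14 (-1.44 to -0.83). Oit1 had an interaction of -1.02 (-1.82 to -0.23). Foxa1, a forkhead factor of endodermal and urothelial epithelia, lay just outside the threshold (-1.0, -1.32 to -0.68), and so did Nbeal1 (-0.97). The keratin gene Krt19, lowest in the urothelium list, was at -0.93 (-1.26 to -0.61). The urothelium list as a whole had a median of -0.05 with 7 of 11 genes below 0. Of the 10 genes with an interaction of -1 or less, 7 had a single promoter. TATAAA stood in 2 of these 7 (28.6%), against 8.21% of kept genes and 14.8% of all promoters. They were the 2 lowest genes, and the letters began 29 and 30 bases before the start (GRCm38.p6, both on the plus strand, TATAAA in capitals).
Sprr2f, chr3:92365122-92365186: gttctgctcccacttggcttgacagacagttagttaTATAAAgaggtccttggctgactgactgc
Plet1, chr9:50494459-50494524: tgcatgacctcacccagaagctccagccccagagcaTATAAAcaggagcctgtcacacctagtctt

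The other 5 genes fell in controls. Sox11, a transcription factor of embryonic progenitors, read 6838 and 5559 in E14.5 controls, 4054 and 5423 in E14.5 mutants, 721 and 664 in E18.5 controls and 1688 and 1169 in E18.5 mutants. It fell in both genotypes, with stage changes of -3.15 in controls and -1.74 in mutants, and its 6 probe sets had interactions from -1.43 to -0.06. Sp1, a ubiquitous zinc finger factor, read 1946 and 2178 in E14.5 controls, 1666 and 1388 in E14.5 mutants, 299 and 276 in E18.5 controls and 935 and 342 in E18.5 mutants. Tug1, a long noncoding RNA, read 3818 and 3537 in E14.5 controls, 2024 and 2745 in E14.5 mutants, 1011 and 696 in E18.5 controls and 1488 and 1163 in E18.5 mutants. Its interaction was -1.29 (-2.01 to -0.57), and its other kept probe sets were at -0.34 and 0.40. Rbfox2, a splicing regulator, and Sema5a, a semaphorin, had interactions of -1.12 (-2.28 to 0.04) and -1.02 (-2.01 to -0.03). In Sp1, Rbfox2 and Sema5a the E18.5 mutant duplicates lay over 1.5-fold apart with array 1 higher. With array 2 alone the interactions of these 3 genes were -0.69, -0.32 and -0.31, so 1 array decided them. The other kept probe sets of Sp1, Rbfox2 and Sema5a lay between -0.42 and -0.03. Of the 10 genes, 9 had the same sign in all 16 array choices and 3 stayed at -1 or less in all 16.

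**Figure D5:**
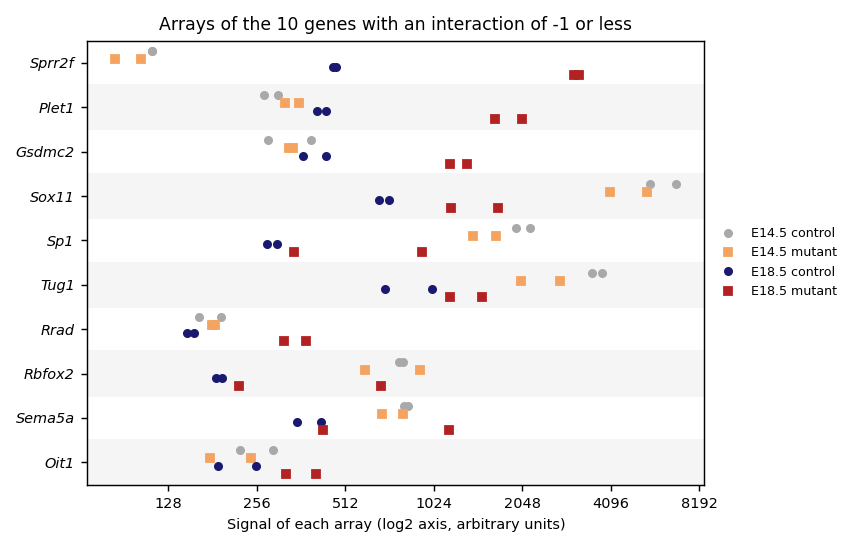
Signals of the 8 arrays (x axis, log2 scale, arbitrary units) for the 10 genes with an interaction of -1 or less (rows), with 2 points per pool. In Sprr2f, Plet1 and Gsdmc2 both red squares of the E18.5 mutants lie to the right of all other points, while in Sp1, Rbfox2 and Sema5a they lie over 1.5-fold apart.

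The 52 genes that rose in both genotypes to a like extent had a median stage change of 1.42 in controls and 1.27 in mutants. Ly6e, an interferon-inducible surface protein, read 241 and 271 in E14.5 controls, 302 and 265 in E14.5 mutants, 1255 and 1270.1 in E18.5 controls and 1274 and 1664 in E18.5 mutants, with stage changes of 2.30 and 2.36. Corin, a serine protease that activates natriuretic peptide, rose by 2.12 and 2.15, and Oasl2, another interferon-inducible gene, by 2.04 and 2.18. The apolipoprotein gene Apoe rose by 2.00 and 1.86, the neuropeptide genes Nts and Penk by 1.91 and 2.05 in controls and by 1.86 and 1.77 in mutants. Erdr1 rose by 2.10 and 1.81 (-0.19 to 0.77 for the interaction).

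Matrix genes and some smooth muscle genes were in this class, which held 0.387% of all kept genes. Tagln, the smooth muscle protein transgelin, read 438 and 363 in E14.5 controls, 392 and 411 in E14.5 mutants, 1638 and 1618 in E18.5 controls and 1469.6 and 1688 in E18.5 mutants. Its E18.5 arrays of both genotypes overlapped, as did its E14.5 arrays. Myl9, a myosin light chain, rose by 1.79 and 1.82, and Acta2, smooth muscle actin, by 1.51 and 1.60. Col15a1, a basement membrane collagen, read 337 and 301 in E14.5 controls, 373 and 386 in E14.5 mutants, 1161 and 1220.4 in E18.5 controls and 1245 and 1708 in E18.5 mutants. Of 24 genes of the interstitial matrix list 8 belonged to the class, among them Col6a1, Col6a2 and Col6a3, the chains of collagen VI, and Eln, Lox and Mgp. The list's median stage changes were 0.96 in controls and 0.95 in mutants, and its median interaction was 0.04. Col3a1, its brightest gene, read 3960.0 and 3806 in E14.5 controls, 4438 and 4698 in E14.5 mutants, 7600.1 and 7465 in E18.5 controls and 8371 and 8722 in E18.5 mutants. Pdgfra, the receptor of interstitial fibroblasts, was lowest in the list (-0.72, -1.03 to -0.40). Of 11 smooth muscle and renin cell genes 2 were shared rises. The list's median stage changes were 1.14 in controls and 0.46 in mutants, 6 of its genes rose by 1 or more in controls and 4 in mutants, and the interactions ran from -0.52 for Myocd to 0.74 for Rgs5, with a median of 0.00. Epithelial genes of the ureteric lineage were in the class too. Epcam read 909 and 892 in E14.5 controls, 1127 and 867 in E14.5 mutants, 2400.4 and 2443 in E18.5 controls and 2021 and 2443 in E18.5 mutants, and Upk3a, a uroplakin of the urothelium, rose by 1.11 and 1.15.

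The 77 genes that fell in both genotypes had medians of -1.28 in controls and -1.22 in mutants. Hbb-y, the embryonic beta-like globin of primitive red cells, led them with 7021 and 6569.8 in E14.5 controls, 7189 and 6718 in E14.5 mutants, 25.2 and 23.3 in E18.5 controls and 21.5 and 20.7 in E18.5 mutants. The stage changes were -8.07 in controls and -8.30 in mutants. Foxd1, a transcription factor of the stromal progenitors, read 1463 and 1517 in E14.5 controls, 1636 and 1542 in E14.5 mutants, 362 and 428 in E18.5 controls and 481 and 528 in E18.5 mutants, and Robo2, the receptor that restricts ureteric budding, read 2288 and 2202 in E14.5 controls, 2302 and 2400.0 in E14.5 mutants, 637 and 695 in E18.5 controls and 709.7 and 745 in E18.5 mutants. In both genes the E18.5 mutant arrays lay above the E18.5 control arrays, by much less than the change between stages. Rrm2, a subunit of ribonucleotide reductase, had stage changes of -1.32 and -1.29. In the cell cycle list 3 of 28 genes were in this class, which held 0.573% of all kept genes. The list's medians were -0.82 in controls and -0.86 in mutants, with a median interaction of -0.07. Mcm7, a replicative helicase subunit, read 3513 and 3510.4 in E14.5 controls, 3797 and 4385 in E14.5 mutants, 1821 and 1812 in E18.5 controls and 1874 and 2626 in E18.5 mutants. Smc4, a condensin subunit, read 3591 and 3829 in E14.5 controls, 2871 and 3721 in E14.5 mutants, 723 and 690.1 in E18.5 controls and 1196 and 474 in E18.5 mutants, so that its duplicates in E18.5 mutants stood far apart. In 10 of the 77 genes these duplicates lay 1.5-fold or more apart, with array 1 higher in each of the 10, as it was for the beta-actin 3′ signal. Over all 13441 kept genes 176 were as far apart, 83 with array 1 higher and 93 with array 2 higher. The stage changes in controls and mutants were -2.04 and -1.98 for Asb6, -2.19 and -1.95 for the ribosome assembly factor Rpf2, -2.10 and -1.88 for the ribosomal protein gene Rpl27a, and -1.94 and -1.86 for Gpr107.

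Lists of progenitors and immune cells had medians below 0, against 0.02 over all kept genes, and held no gene at -1 or less. The share of all kept genes below 0 is not given here. In the cap mesenchyme list, which marks nephron progenitors, 18 of 21 kept genes had an interaction below 0. The median was -0.15 (-0.41 to -0.05 over single arrays), with Eya1 lowest at -0.53 and Itga8 highest at 0.29. Eya1 read 819.9 and 1157 in E14.5 controls, 1244 and 1176 in E14.5 mutants, 450.2 and 466 in E18.5 controls and 773 and 878 in E18.5 mutants, and Ncam1, the brightest of the list, read 1322 and 1451 in E14.5 controls, 1573 and 1685 in E14.5 mutants, 1594 and 1530.4 in E18.5 controls and 2390.1 and 2718 in E18.5 mutants. For both, E18.5 mutants stood above E18.5 controls. The stromal progenitor list had a median of -0.23 (-0.37 to -0.04 over single arrays) with 8 of 12 genes below 0. Fat4, an atypical cadherin, was lowest (-0.77, -1.04 to -0.50). In the immune cell list 13 of 14 genes lay below 0, with a median of -0.30 (-0.59 to -0.13 over single arrays). Ptprc, the pan-leukocyte marker CD45, read 135 and 148 in E14.5 controls, 132 and 123 in E14.5 mutants, 244 and 264 in E18.5 controls and 323 and 376 in E18.5 mutants, with stage changes of 0.84 in controls and 1.44 in mutants (interaction -0.60, -0.89 to -0.32). The summed immune signal was 5427 and 6246 in E18.5 controls and 6998 and 7803 in E18.5 mutants. The ureteric bud list had a median of -0.07, and Cdh1, the E-cadherin gene, was its lowest (-0.49, -1.13 to 0.15). The endothelial list had a median of 0.23 with 15 of 20 genes above 0, and Plvap, a protein of fenestrated endothelium, was its highest (0.97, 0.69 to 1.25). These medians were small beside the 2.37 of the proximal tubule list.

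The lists of tubule injury (13 genes), fetal growth (13) and hypoxia and stress response (16) had medians of 0.04, -0.14 and 0.14. In the first, Cldn4, a claudin of distal and collecting epithelia, was lowest (-0.78), and in the last, the glucose transporter gene Slc2a1 was highest (1.15, 0.51 to 1.79) and the immediate early gene Egr1 lowest (-0.77). The imprinted genes Plagl1 and Mest, the brightest of the fetal growth list, had interactions of -0.11 and -0.14. In all, 116 of the 302 genes with an interaction of 1 or more, 2 of the 10 with -1 or less, 15 of the 52 shared rises and 6 of the 77 shared falls stood in at least 1 of the lists or families examined.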

How the data were processed

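RNA of 4 pools of embryonic kidneys was measured on 8 arrays. The deposited file gives 1 linear signal intensity for each probe set on each array. The authors scaled the scans in Microarray Suite 5.0, then modelled and normalized them in dChip2004 by its invariant-set method. Which of these steps gave the deposited values is not given in the sources used here. The table holds 45101 probe sets. Platform annotation updated through RefSeq identifiers gave 34958 of them 1 gene, 932 several and 9211 none, and 34754 matched by identifier.

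With 1 added to each signal, log2 values were averaged over the 2 arrays of a pool. A probe set was kept when its mean over the 8 arrays was at or above the 40th percentile (187.7), which left 27061, and each gene was read by its brightest kept probe set. The arrays limit the precision, since each pool is 1 biological replicate and duplicates give technical error only. Array numbers pair nothing. Steps were tested on simulated data and run in Python 3.11.15 (pandas 2.3.3, numpy 2.4.6, matplotlib 3.10.9). Promoters came from RefSeq (GRCm38.p6), and 1 planned set of letters is not reported here.

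Groups were taken from the sample titles. Members, the 25 lists, the 18 symbol-defined families, the tests and the alternatives were chosen with earlier results of these data known. Named genes are the 12 highest and 12 lowest interactions, the leading 10 shared rises and 6 shared falls, the 2 brightest genes and both extremes of each list, transcription factors of the lists, the genes next to the thresholds and those discussed by the study. Others were named after their values were seen. Alternatives varied the minimum signal, offset, averaging, normalization, the probe sets read and the arrays used. No comparison columns of the authors were used.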

Additional observations from a re-analysis of the deposited data

Results flagged for a closer look

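Of the genes named by the rule given above, Cldn10 and Tfrc changed in opposite directions between stages. The changes were at least 0.5 on the log2 scale between pool means, and opposite in every choice of arrays. Genes named after their values were seen are not covered by this statement. Whether the genotypes differ was not tested, since each condition has 1 biological replicate. Cldn10, a claudin of proximal tubule and thick ascending limb, read 726 and 581 in E14.5 controls, 746 and 885 in E14.5 mutants, 1159.6 and 1232 in E18.5 controls and 589.8 and 244 in E18.5 mutants. The stage changes were 0.88 in controls and -1.10 in mutants, which gives an interaction of 1.98 (1.01 to 2.94). The E18.5 mutant duplicates were far apart, and the interaction was 1.34 with array 1 alone and 2.61 with array 2 alone. Tfrc, which encodes the transferrin receptor, had stage changes of 0.54 in controls and -0.88 in mutants by its brightest probe set, an interaction of 1.42 (1.16 to 1.68). Its 2 other kept probe sets had interactions of -0.06 and 0.02, so the difference rests on 1 probe set.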

How the results depend on the processing

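The 302 genes with an interaction of 1 or more were the firmest count: it stayed within 1.5 times under every alternative but 1, rising to 561 with array 1 of every pool only (289 of the 302 among them). The count of 10 at -1 or less moved most: to 28 with no minimum signal, 6 with an offset of 50, 18 after quantile normalization, 59 with any kept probe set, and 39 and 78 with array 1 or array 2 of every pool only. The 52 shared rises became 32 with the offset of 50, 85 with any kept probe set and 34 with array 1 only. The 77 shared falls, for which alternatives were added after seeing the data, became 43 with the mean over kept probe sets, 131 with any kept probe set and 50 with array 1 only. With 1 array left out in turn the 4 counts ranged from 234 to 402, from 12 to 48, from 31 to 83 and from 64 to 76. Past 1.5 times were the count of 10 without E14.5 control array 1 (23), E14.5 mutant array 1 (42), E18.5 control array 2 (48) and E18.5 mutant array 1 (21) or 2 (26), and the count of 52 without E18.5 mutant array 1 (83) or 2 (31). Causes were not tested, except that reading any kept probe set enlarges what can pass by construction. Of 475 list medians recomputed, 454 stayed within the spread between arrays, and of 2679 values of 142 named genes 2546 did. For named genes much of this was fixed in advance. Leaving out 1 array cannot move a value past that spread, and raising or dropping the minimum mean signal leaves the brightest probe set unchanged. The count of 2546 therefore does not measure robustness. None of the named genes at or past the threshold of 1 changed sign. No paired analysis was possible because array numbers do not pair the pools and no test was run.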

Other observations

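Probe sets of 1 gene did not always give the same class. Among the 27061 kept probe sets 86 (0.318%) had an interaction of -1 or less, against 10 genes read by their brightest probe set. Ncam1 was at -0.47 by its brightest probe set and at -1.51 by its next brightest, which read 2132 and 2306 in E14.5 controls, 1863 and 1709.8 in E14.5 mutants, 616 and 523 in E18.5 controls and 1590.4 and 1071 in E18.5 mutants. Pdgfra was at -0.72 and at -1.42 by its next brightest, and Ccnd1, which encodes cyclin D1, at -0.27 and at -1.16 by the dimmest of its 3 kept probe sets. These genes were chosen after their values were seen. Of the probe sets without a single named gene, the 2 lowest interactions were -2.92, with signals of 152 and 159.9 in E14.5 controls, 142 and 128 in E14.5 mutants, 294 and 259.6 in E18.5 controls and 1688 and 1948 in E18.5 mutants, and -2.77, with signals of 20.3 and 19.3 in E14.5 controls, 12.3 and 27.6 in E14.5 mutants, 186 and 181 in E18.5 controls and 977 and 1420.0 in E18.5 mutants. Both resembled Sprr2f and Plet1 in that the E18.5 mutant arrays stood highest.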
